A study of Mus musculus with 16 samples.

Results

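Proneural transcription factors were followed through 16 arrays of adult mouse neural stem cells. The set held 8 genes, Sox11, Sox4, Insm1, Hes6, Neurog2, Neurod1, Dlx1 and Dlx2, of the 12393 genes that had a probe set annotated with 1 symbol. A probe set is a group of short oligonucleotides on the array that reads 1 transcript region. Genes were taken by symbol, each read by its probe set with the highest mean signal. The 8 genes had 15 probe sets in all, and only Sox4, Hes6 and Neurod1 had more than 1. Of the 8 genes, 4 were bright enough to be tested (Sox11, Sox4, Insm1 and Hes6) and 4 were too dim to be tested (Neurog2, Neurod1, Dlx1 and Dlx2).

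The study asked which transcripts depend on Tlx (Nr2e1), a nuclear receptor needed for the self-renewal of adult neural stem cells. The cultures had the genotype Tlx(f/Z;CreER), called CreER here, or Tlx(f/Z) without Cre. Each genotype received 4OH-TM (4-hydroxytamoxifen) or vehicle, and RNA was taken at 60 h or 36 h, which made 8 groups of 2 arrays. All groups carried the Tlx f/Z alleles, so no group was wild type for Tlx by its label. CreER is a Cre recombinase fused to a ligand-binding domain that 4-hydroxytamoxifen activates. The promoter that drives it, the ages of the animals and the number of animals or cultures behind the cells were not stated. Replicates are described as biological, but no source used here ties them to separate animals or cultures, and the p-values cover only the scatter among these arrays, which may be technical. No probe set used here was listed for Nr2e1, so the loss of the targeted gene was not checked.

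Proneural factors are transcription factors that commit neural progenitors to a neuronal fate. The basic helix-loop-helix (bHLH) members, such as Neurog2 and Neurod1, pair with E proteins and bind E-boxes, sites of the form CANNTG. They switch on Notch ligands, cell cycle exit genes and further factors such as Insm1 and the SoxC proteins Sox4 and Sox11. Hes1 and the Id proteins hold this programme back, whereas Hes6, a Hes relative, is known to favour neuronal differentiation by opposing Hes1. Dlx1 and Dlx2 are homeodomain factors of the ventral forebrain and the subventricular zone, where they direct the formation of interneurons.

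Promoter windows of 300 bases around the start of transcription were taken from RefSeq, build GRCm38.p6, and are shown for the 3 members that carried the CAGCTG form of the E-box, because this is the sequence class that bHLH factors bind. Capitals mark each CANNTG match, each window is written 5′ to 3′ on the strand of the gene, and a CANNTG on one strand is a CANNTG on the other. The Sox11 window lies at chr12:27342669-27342968 on the minus strand, the Sox4 window at chr13:28953650-28953949 on the minus strand, and the 2 Hes6 windows, for 2 start sites, at chr1:91413989-91414288 and chr1:91413173-91413472 on the minus strand.
Sox11: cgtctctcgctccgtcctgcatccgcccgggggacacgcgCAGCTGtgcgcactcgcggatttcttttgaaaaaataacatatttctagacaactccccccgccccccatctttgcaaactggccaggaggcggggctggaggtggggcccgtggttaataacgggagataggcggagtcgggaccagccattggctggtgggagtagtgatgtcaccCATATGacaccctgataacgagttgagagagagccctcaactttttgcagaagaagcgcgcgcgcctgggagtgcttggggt
Sox4: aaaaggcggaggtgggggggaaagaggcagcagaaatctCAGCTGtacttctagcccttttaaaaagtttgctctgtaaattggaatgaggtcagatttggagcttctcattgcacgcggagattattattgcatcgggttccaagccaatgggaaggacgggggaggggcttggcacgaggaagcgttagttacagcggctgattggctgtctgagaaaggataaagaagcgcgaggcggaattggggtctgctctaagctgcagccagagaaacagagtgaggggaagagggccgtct
Hes6 window 1: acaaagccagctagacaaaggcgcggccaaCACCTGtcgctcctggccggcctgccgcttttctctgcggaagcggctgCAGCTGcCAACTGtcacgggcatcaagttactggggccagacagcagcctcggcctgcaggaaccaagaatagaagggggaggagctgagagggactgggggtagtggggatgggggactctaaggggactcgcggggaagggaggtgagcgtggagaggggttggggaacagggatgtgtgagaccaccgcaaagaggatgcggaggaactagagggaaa
Hes6 window 2: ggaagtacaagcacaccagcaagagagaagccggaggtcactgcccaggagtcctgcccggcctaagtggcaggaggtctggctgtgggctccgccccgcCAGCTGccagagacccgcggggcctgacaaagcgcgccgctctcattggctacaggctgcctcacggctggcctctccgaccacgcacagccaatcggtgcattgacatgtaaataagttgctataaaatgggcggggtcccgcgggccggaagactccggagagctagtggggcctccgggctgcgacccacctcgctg
A window was listed for 7 of the 8 members, all but Insm1, and for Hes6 there were 2. CANNTG occurred in 6 of these 8 windows, against 72.3% of the 32851 windows in the table. CAGCTG, which is itself a CANNTG, occurred in 4 of the 8 windows, against 16.3% of all windows. CAGATG or its reverse complement CATCTG, the other E-box searched and also a CANNTG, occurred in 0 of the 8 windows, against 17.2% of all windows. These matches describe the letters of the windows and were not related to the array values.

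Values are MAS5 signals, a linear brightness per probe set. The median brightness of an array ranged over 92.16 to 132.6, and replicates correlated at 0.988 to 0.9911. A gene was tested if its mean log2(signal + 16) reached 6.069, a signal of 51.1, which left 7619 genes. Differences are on the log2(signal + 16) scale from 1 limma fit of all 16 arrays, and a gene was called at a Benjamini-Hochberg adjusted p under 0.05. Of 9 neural stem cell markers with a probe set 7 passed the filter, among them Nes, Sox2, Vim and Fabp7, while Prom1 and Hes5 did not. Of 10 neuron markers 4 passed (Map2, Syt1, Gap43 and Syp), and the defining markers Tubb3, Dcx, Rbfox3 and Snap25 had mean signals of 16.6, 15.3, 10.6 and 2.38. Of the astrocyte markers 4 of 7 passed, Gfap not among them, of the oligodendrocyte lineage markers 3 of 7 and of the microglia markers 1 of 6, and 0 of 6 endothelial and mural, 0 of 5 fibroblast and 0 of 1 ependymal markers did. Arrays differed in brightness in ways that touch the split of calls: CreER cultures against cultures without Cre under vehicle gave 610 genes higher and 2030 lower as deposited, but 2223 and 1994 after quantile normalization. For the 4OH-TM response of CreER cultures, both times together, the split was 305 and 639 as deposited, and 1490 and 1457 after quantile normalization.

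Sox11, a SoxC factor of newborn neurons that acts after the proneural bHLH factors, was lower in CreER cultures than in cultures without Cre and had its lowest group mean in CreER cultures under 4OH-TM at 60 h. Its only probe set (1436790_a_at) read 111 and 113 in CreER cultures under 4OH-TM at 60 h, 188 and 176 in CreER cultures under vehicle at 60 h, 136 and 166 in CreER cultures under 4OH-TM at 36 h, and 152 and 202 in CreER cultures under vehicle at 36 h. In cultures without Cre it read 271 and 242 under 4OH-TM at 60 h, 260.3 and 350.4 under vehicle at 60 h, 276 and 229.6 under 4OH-TM at 36 h, and 252 and 361 under vehicle at 36 h. Every CreER array was below every array without Cre, and within CreER cultures the 4OH-TM arrays at 60 h lay below both vehicle arrays of that time, whereas at 36 h the treatments overlapped.

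Over 8 arrays each, Sox11 averaged 155 ± 33.6 in CreER cultures and 280.2 ± 49.1 in cultures without Cre (SD, n = 8 each). CreER against no Cre, the log2 difference was -0.89 under 4OH-TM (SE 0.14, limma adjusted p = 4.18e-09) and -0.71 under vehicle (SE 0.14, limma adjusted p = 4.03e-06). Sox11 was the only member called in either comparison, 1 of the 4 tested, where 38.6% of all tested genes were called under 4OH-TM and 34.7% under vehicle, mostly lower (30% and 26.6%). The median of all tested genes was itself shifted, by -0.15 under 4OH-TM and -0.13 under vehicle. The call held in 11 of 11 alternative settings and with each of the 16 arrays left out in turn, with differences of -0.96 to -0.71 under 4OH-TM and -0.76 to -0.52 under vehicle over the settings. The genotypes are separate cultures, so Cre and any other difference between the cultures cannot be told apart. In bulk RNA, fewer cells with Sox11 and less Sox11 per cell cannot be told apart either. The summed signal of the 10 neuron markers was 1377 to 2396 in CreER cultures and 1702 to 2437 in cultures without Cre, and that of the 7 astrocyte markers 4161 to 5599 and 3750 to 4620. The neuron sum rests mostly on Map2 (mean signal 1560) and the astrocyte sum mostly on Aldoc (3680). Of 7 tested neural stem cell markers 3 were lower in CreER cultures under 4OH-TM (Pax6 at -0.97, Nes at -0.61 and Slc1a3 at -0.61). Under vehicle 4 were lower (Nes at -0.83, Pax6 at -0.64, Slc1a3 at -0.47 and Vim at -0.24). Of all tested genes 30% and 26.6% were lower. The median of the 7 markers was -0.20 under 4OH-TM and -0.24 under vehicle, beside -0.15 and -0.13 over all tested genes. The summed signal of the neural stem cell markers was 14760 to 20010 in CreER cultures and 16970 to 23590 in cultures without Cre. It rests mostly on Vim (mean signal 7130) and Fabp7 (5730). The part of the neuron, astrocyte and stem cell markers in the Sox11 difference was not tested.

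Within CreER cultures, Sox11 fell by 0.63 on the log2 scale after 4OH-TM at 60 h (SE 0.20, limma adjusted p = 0.0272). Over both times it fell by 0.41 (SE 0.14, limma adjusted p = 0.0306). At 36 h the difference was -0.20 (SE 0.20, limma adjusted p = 0.784). Again Sox11 was the only member called, 1 of 4 tested at 60 h against 7.02% of all tested genes and 1 of 4 over both times against 12.4%. After quantile normalization Sox4 and Hes6 were called too, both higher after 4OH-TM, at 60 h and over both times. Median scaling also called both higher over both times. The Sox11 call did not hold in every setting. At 60 h it was lost without a brightness filter (adjusted p = 0.146), without variance moderation (0.186) and with the spread taken from the 4 compared arrays alone (0.439), and also without CreER vehicle 60 h replicate 1, CreER 4OH-TM 60 h replicate 1 or CreER 4OH-TM 60 h replicate 2, where the differences were -0.58, -0.62 and -0.64. Over both times it was lost in the same 3 settings and without any of 4 arrays, with differences of -0.32 without CreER vehicle 36 h replicate 2, -0.39 without CreER vehicle 60 h replicate 1, -0.35 without CreER 4OH-TM 36 h replicate 1 and -0.41 without CreER 4OH-TM 60 h replicate 1.

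In cultures without Cre, Sox11 differed by -0.24 between 4OH-TM and vehicle (SE 0.14, limma adjusted p = 0.9999). Neither the difference between the genotypes' responses (-0.18, 95% interval -0.56 to 0.21, limma adjusted p = 0.868) nor that between the CreER responses at 60 h and 36 h (-0.42, interval -0.97 to 0.12, adjusted p = 0.99999) was called, so the fall is not shown to be particular to CreER cultures or to 60 h. The summed signal of the 10 neuron markers was 1377 to 2030 in CreER cultures under 4OH-TM at 60 h and 1901 to 2213 under vehicle at 60 h. That of the neural stem cell markers was 14760 to 18420 under 4OH-TM and 16160 to 19350 under vehicle. Both sums overlapped between treatments, the first resting mostly on Map2 and the second mostly on Vim and Fabp7. Of the 7 tested stem cell markers 0 were called by limma at 60 h, 2 at an unadjusted p under 0.05, against 7.02% of all tested genes called. Over both times, against 12.4% called, 3 of these markers were lower after 4OH-TM (Pax6 at -0.40, Slc1a3 at -0.35 and Fabp7 at -0.27). Their part in the Sox11 result was not tested.

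**Figure D1:**
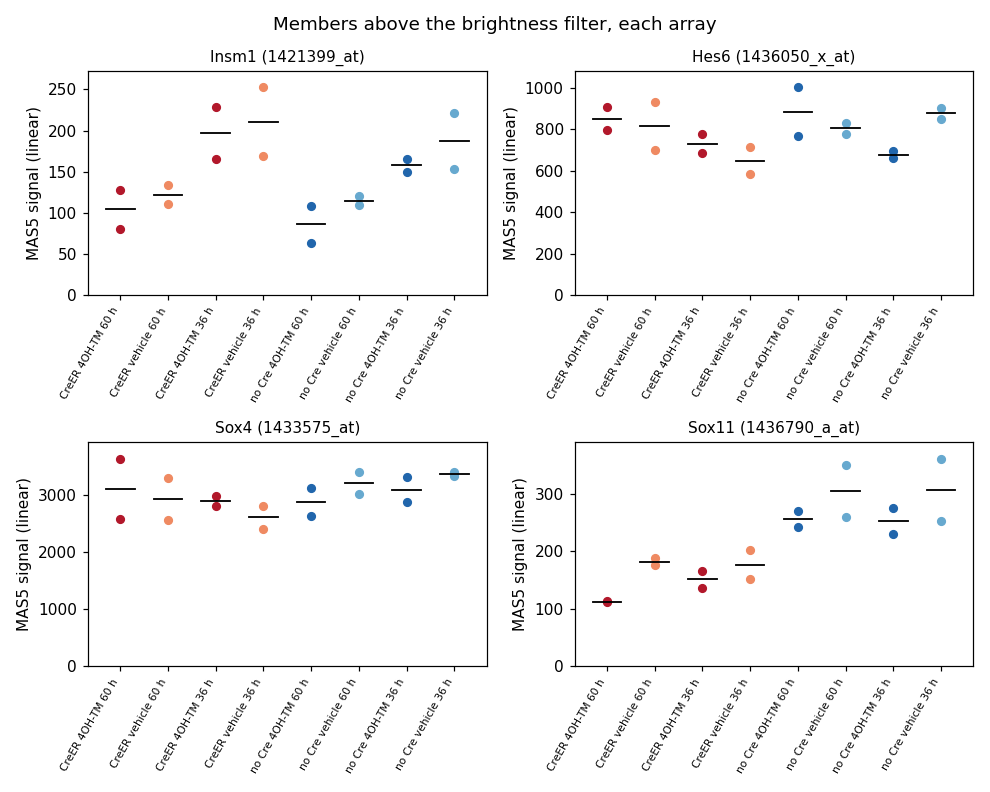
Linear MAS5 signal of the 4 members above the brightness filter in each of the 16 arrays, by group. Points are arrays and bars are means of 2 arrays. Sox11 in the 8 CreER arrays (111 to 202) lies below the 8 arrays without Cre (229.6 to 361), and Insm1 lies lower at 60 h than at 36 h in both genotypes.

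Sox4, the other SoxC factor of the set, had 6 probe sets, of which the brightest (1433575_at) was called in no comparison. It read 2568 and 3631 in CreER cultures under 4OH-TM at 60 h, 3288 and 2556 under vehicle at 60 h, 2797 and 2969.7 under 4OH-TM at 36 h, and 2394 and 2811 under vehicle at 36 h. The arrays without Cre read 3119.9 and 2634 under 4OH-TM at 60 h, 3016 and 3399 under vehicle at 60 h, 3302 and 2866 under 4OH-TM at 36 h, and 3331 and 3399.7 under vehicle at 36 h. The treatments overlapped in CreER cultures at both times and in cultures without Cre at 60 h, while at 36 h both no Cre vehicle arrays lay above all other 36 h arrays. For Sox4, 0 of 7 steps between neighbouring group means exceeded the pooled within-group SD of 391.

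By limma this probe set passed in 0 of 11 comparisons. The nearest was CreER against no Cre under vehicle, at -0.26 (SE 0.11, limma adjusted p = 0.0589). That value passed the threshold after quantile normalization and without each of 4 arrays, CreER vehicle 36 h replicate 2, CreER vehicle 60 h replicate 1 and either CreER 4OH-TM 60 h replicate, with -0.35 the lowest of the differences. The response to 4OH-TM in CreER cultures was 0.11 with both times together (95% interval -0.11 to 0.33, adjusted p = 0.578). That response was called higher after median scaling and after quantile normalization (lowest limma adjusted p = 0.00544). Over the alternative settings it ranged from 0.07 to 0.22. At 60 h alone it was called higher after quantile normalization (limma adjusted p = 0.0462). So the missing call in the main fit depended on how array brightness was handled.

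The other Sox4 probe sets did not move with the brightest. 1419155_a_at read 1317 and 1342 in CreER cultures under 4OH-TM at 60 h, 1263 and 1004 under vehicle at 60 h, 884 and 827 under 4OH-TM at 36 h, and 751 and 739.7 under vehicle at 36 h. Without Cre it read 1577 and 1362 under 4OH-TM at 60 h, 1314 and 1399.8 under vehicle at 60 h, 594 and 706 under 4OH-TM at 36 h, and 731 and 985 under vehicle at 36 h. Every 60 h array was above every 36 h array. In a limma fit of all 13576 probe sets past the filter, an alternative chosen after seeing the data, the 60 h against 36 h difference was 0.61 in CreER cultures (SE 0.13, adjusted p = 4.27e-04) and 0.91 in cultures without Cre (SE 0.13, adjusted p = 5.51e-10). That fit called 5.14% of its probe sets in CreER cultures and 8.16% in cultures without Cre.

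A further probe set, 1419156_at, gave differences of 0.58 in CreER cultures (adjusted p = 0.00146) and 0.85 in cultures without Cre (adjusted p = 4.48e-08). The brightest probe set gave 0.12 (SE 0.11) and -0.09 (SE 0.11) in the same fit. With each probe set's own spread in place of the shared one, the calls held in cultures without Cre (adjusted p = 0.00759 and 0.00998) but not in CreER cultures (0.0619 and 0.0763). So whether Sox4 counted as higher at 60 h than at 36 h depended on the probe set, and the level of the gene has no single reading here. The 60 h and 36 h arrays without Cre also differed in the ratio of the 5′ to the 3′ actin control probe sets, a measure of RNA or labelling quality, which averaged 0.826 ± 0.0548 at 60 h but 0.614 ± 0.0534 at 36 h (SD over 4 arrays). In CreER cultures it averaged 0.826 ± 0.0729 at 60 h but 0.776 ± 0.0454 at 36 h. Its part in the probe set differences was not tested.

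1419157_at ranged over 1.66 to 1096. It read 904 and 198 in CreER cultures under 4OH-TM at 60 h, 990.1 and 878 under vehicle at 60 h, 566 and 326 under 4OH-TM at 36 h, and 151 and 74.8 under vehicle at 36 h. The arrays without Cre read 606 and 1096 under 4OH-TM at 60 h, 503 and 474 under vehicle at 60 h, 1.66 and 25.1 under 4OH-TM at 36 h, and 2.67 and 34.6 under vehicle at 36 h. The 4 arrays without Cre at 36 h were all below the other 12, and the replicates of some groups differed several-fold. Those 4 values lie under the filter signal of 51.1, so the differences that rest on them have no exact size. They are left out here, and the flagged results below repeat that limit where such a difference is given. In CreER cultures the difference between 60 h and 36 h was 1.47 (SE 0.14 with the shared spread, but 0.56 with its own).

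1449370_at read 571 and 919.6 in CreER cultures under 4OH-TM at 60 h, 565 and 418 under vehicle at 60 h, 482 and 608 under 4OH-TM at 36 h, and 586 and 675 under vehicle at 36 h. In cultures without Cre it read 604 and 427 under 4OH-TM at 60 h, 659.8 and 845 under vehicle at 60 h, 247 and 421 under 4OH-TM at 36 h, and 430.3 and 692 under vehicle at 36 h. In cultures without Cre both 4OH-TM arrays lay below both vehicle arrays at each time. In CreER cultures both lay above them at 60 h, by little for one array (571 against 565), while at 36 h the treatments overlapped. With the times pooled, the treatments overlapped in both genotypes. With the shared spread it was called lower after 4OH-TM in cultures without Cre (-0.63, adjusted p = 0.00451, against 0.214% of probe sets), higher in CreER cultures than in cultures without Cre under 4OH-TM (0.61, 8.87e-05, against 37.4%) and higher at 60 h than at 36 h without Cre (0.53, 0.00287). With its own spread none of these calls was kept (adjusted p = 0.999, 0.115 and 0.289). 1455867_at, at 23.4 to 84.0, had a mean under the filter and was not tested.

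**Figure D2:**
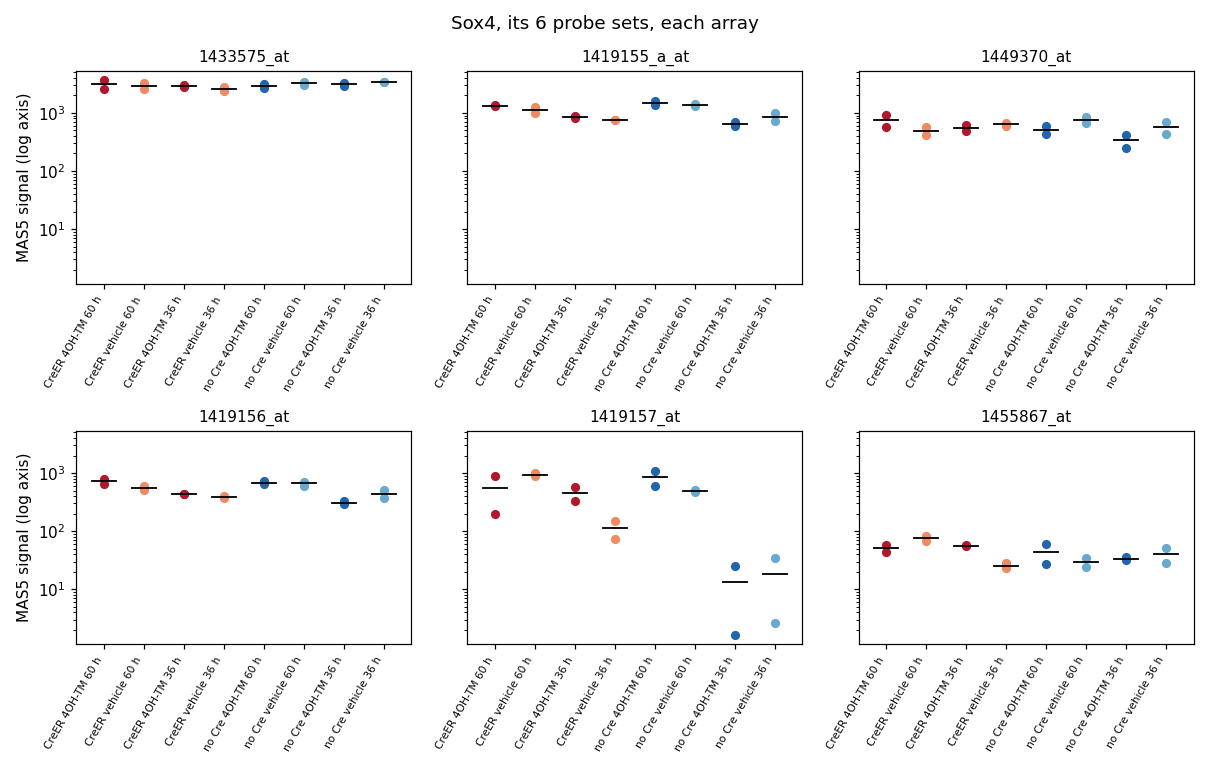
MAS5 signal of the 6 Sox4 probe sets in each array on a log axis, by group. Points are arrays and bars are means of 2 arrays. 1433575_at lies between 2394 and 3631, 1419155_a_at is higher at 60 h, and 1419157_at drops to between 1.66 and 34.6 in the cultures without Cre at 36 h.

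Insm1, a zinc-finger repressor that acts in newborn neurons and intermediate progenitors downstream of proneural factors, was lower at 60 h than at 36 h in both genotypes. Its probe set (1421399_at) read 80.9 and 128 in CreER cultures under 4OH-TM at 60 h, 134 and 111 under vehicle at 60 h, 166 and 228 under 4OH-TM at 36 h, and 169 and 253 under vehicle at 36 h. In cultures without Cre it read 109 and 63.6 under 4OH-TM at 60 h, 109 and 120.0 under vehicle at 60 h, 166 and 149.6 under 4OH-TM at 36 h, and 222 and 154 under vehicle at 36 h. Every 60 h array lay below every 36 h array, whatever the genotype or treatment.

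In CreER cultures Insm1 averaged 113 ± 23.7 at 60 h and 204 ± 43.3 at 36 h (SD over 4 arrays). Without Cre it averaged 100.4 ± 25.1 at 60 h and 173 ± 33.3 at 36 h. It fell by 0.76 on the log2 scale at 60 h in CreER cultures (SE 0.15, limma adjusted p = 3.27e-05) and fell by 0.71 in cultures without Cre (SE 0.15, limma adjusted p = 1.39e-04). The difference between the 2 changes was -0.05 (95% interval -0.46 to 0.36, adjusted p = 0.980) and was not called. Insm1 was the only member called, 1 of 4 tested, against 5.3% of all tested genes in CreER cultures and 4.13% in cultures without Cre, of which 3.58% and 1.6% were lower. Both calls held with each of the 16 arrays left out. Both were lost without a brightness filter (adjusted p = 0.0577 in CreER cultures and 0.101 in cultures without Cre) and without variance moderation (0.181 and 0.207). With the 5′ to 3′ actin ratio in the fit, the value in cultures without Cre became 0.38 (adjusted p = 0.573), in the other direction and not called. That ratio differed between the times in those cultures, so time and the ratio cannot be told apart there. The summed neuron markers, mostly Map2 signal, were 1377 to 2213 at 60 h and 1808 to 2396 at 36 h in CreER cultures. In cultures without Cre they were 1702 to 2324 at 60 h and 2194 to 2437 at 36 h. Their part was not tested.

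The Insm1 response to 4OH-TM in CreER cultures, both times together, was -0.15 (95% interval -0.44 to 0.14, limma adjusted p = 0.574). In cultures without Cre it was -0.30 (interval -0.59 to -0.01, adjusted p = 0.9999). By limma, 0 of 4 members were called for 4OH-TM in cultures without Cre, 1 at an unadjusted p under 0.05 (Insm1), against 0.0656% of all tested genes. The genotypes' responses differed by 0.15 (interval -0.26 to 0.56), and 0 of 4 members were called for that difference or at an unadjusted p under 0.05, against 2.36% of all tested genes.

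**Figure D3:**
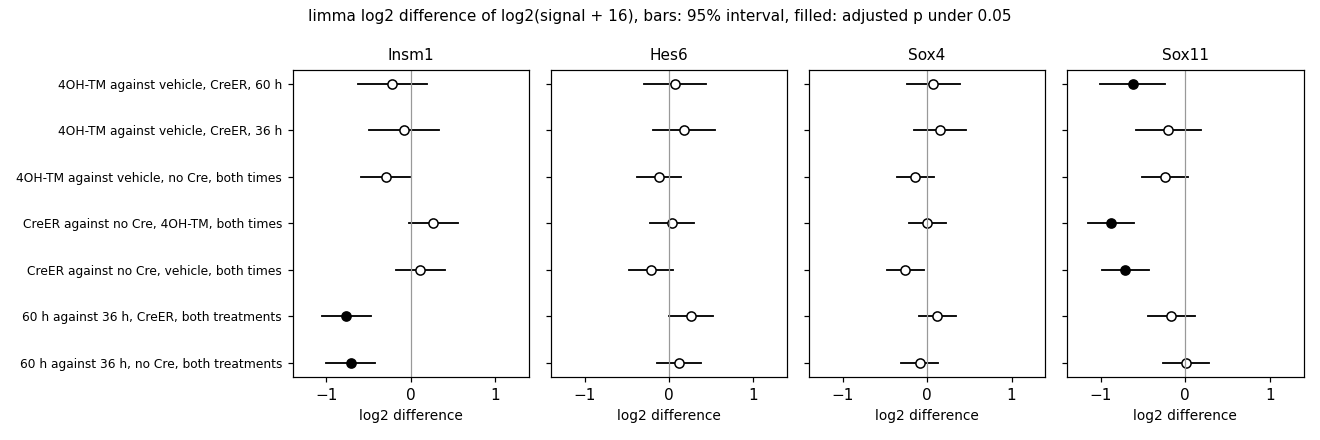
Differences of log2(signal + 16) from limma for the 4 tested members in 7 comparisons, with 95% intervals; filled points have an adjusted p under 0.05. Sox11 is called in 3 of the comparisons shown and Insm1 in both comparisons of 60 h against 36 h, while Hes6 and Sox4 are called in none.

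Hes6 (1436050_x_at) read 795 and 907 in CreER cultures under 4OH-TM at 60 h, 931 and 698 under vehicle at 60 h, 685 and 777 under 4OH-TM at 36 h, and 583 and 713 under vehicle at 36 h. Without Cre the values were 1002 and 766 under 4OH-TM at 60 h, 776 and 832 under vehicle at 60 h, 694 and 661 under 4OH-TM at 36 h, and 849.6 and 903 under vehicle at 36 h. The treatments overlapped in CreER cultures at both times and in cultures without Cre at 60 h, while the no Cre vehicle arrays at 36 h lay above the other 36 h arrays. For Hes6, 0 of 7 steps between neighbouring group means exceeded the pooled SD of 98.3. The suffix of this probe set marks that some of its probes match other transcripts too.

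By limma Hes6 was called in none of the 11 comparisons of the main fit. The 60 h against 36 h difference in CreER cultures was 0.26 (SE 0.13, unadjusted p = 0.0463, adjusted p = 0.318), and it was called after median scaling and after quantile normalization. Both scalings also called Hes6 higher after 4OH-TM in CreER cultures over both times (lowest limma adjusted p = 0.00339). Under 4OH-TM both called it higher in CreER cultures than without Cre (lowest 0.00159). Quantile normalization alone called it higher after 4OH-TM in CreER cultures at 60 h (0.0473) and 36 h (0.0299). It also called the CreER response larger than that without Cre (0.0168). The second Hes6 probe set (1452021_a_at) read 372 to 729 and, in the fit of all probe sets, was higher at 60 h than at 36 h in cultures without Cre by 0.47 (SE 0.14, adjusted p = 0.0117), a call that its own spread did not keep (adjusted p = 0.0611). For the response of CreER cultures to 4OH-TM at 36 h, 0 of 4 members were called or had an unadjusted p under 0.05, against 2.64% of all tested genes. The same held for the difference between the CreER responses at 60 h and 36 h, against 0.197% of all tested genes, and for the difference of the time changes between the genotypes, against 2.23%.

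For Sox11 the order of group means ran from no Cre under vehicle at 36 h (307) down to CreER under 4OH-TM at 60 h (112), and 2 of 7 steps exceeded the pooled SD of 40.8: the step from no Cre vehicle 60 h (305) to no Cre 4OH-TM 60 h (256) and the step from no Cre 4OH-TM 36 h (253) to CreER vehicle 60 h (182). For Insm1 the 4 groups at 36 h (158 to 211) came first and the 4 at 60 h (86.2 to 122) last, and 0 of 7 steps exceeded the pooled SD of 35.9.

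Neurog2 and Neurod1, the bHLH factors of committed progenitors and young neurons, had low signals. The Neurog2 probe set (1422839_at) read 1.23 to 14.2, above the highest of 27 bacterial control probe sets in 1 of 16 arrays, and 5 of the 27 controls had a mean at or above its own of 7.84. It read 10.5 and 10.7 in CreER cultures under 4OH-TM at 60 h, 1.23 and 4.41 under vehicle at 60 h, 11.4 and 6.78 under 4OH-TM at 36 h, and 2.97 and 2.14 under vehicle at 36 h. The arrays without Cre read 3.55 and 2.48 under 4OH-TM at 60 h, 8.94 and 14.2 under vehicle at 60 h, 9.11 and 14.2 under 4OH-TM at 36 h, and 11.9 and 11.1 under vehicle at 36 h. In CreER cultures the 4OH-TM arrays were above the vehicle arrays, but the values were within the range of control probe sets, so no direction was drawn.

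The Neurod1 probe set (1426413_at) read 4.69 to 30.6 with a mean of 16.3, above the highest bacterial control in 4 of 16 arrays, and its second probe set (1426412_at) read 4.39 to 25.2. Dlx1 (1449470_at) read 25.4 to 62.3 with a mean of 36.4 and was above all bacterial controls in 16 of 16 arrays, under the filter for testing all the same. Dlx2 (1448877_at) read 2.97 to 54.4 with a mean of 23.2 and was above the controls in 9 of 16 arrays. For Neurog2, Neurod1 and Dlx2 the arrays give only a bound, a signal not clearly above background in every array, and Dlx1 was not tested, so no fold change is given for these 4 genes. With no filter, Neurod1 was called for CreER against no Cre under 4OH-TM, and Dlx2 and Neurog2 were called under vehicle, all at levels below the filter, in a setting that called 21.5% of 12393 genes under 4OH-TM and 20% under vehicle.

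**Figure D4:**
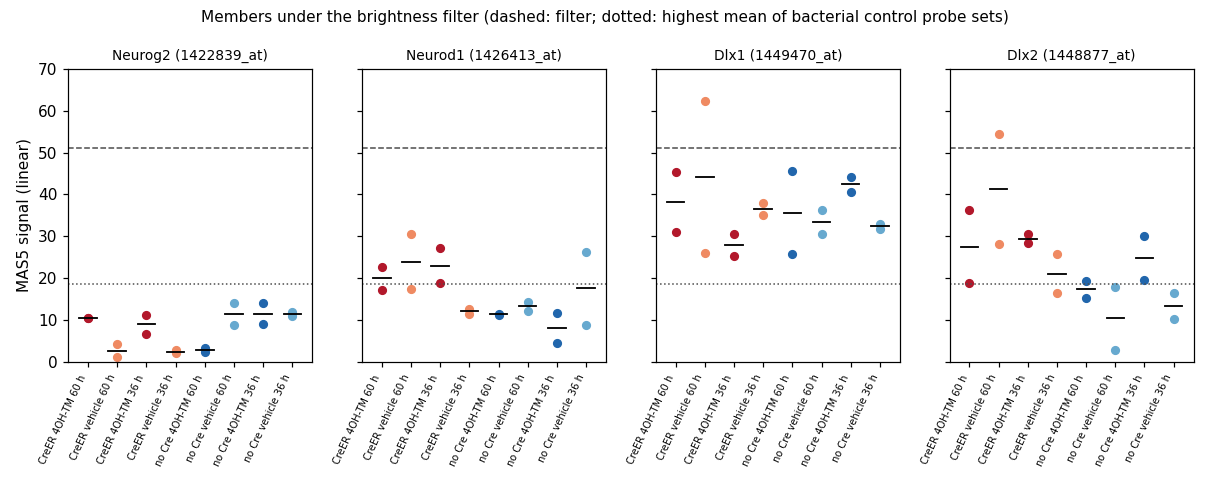
Linear MAS5 signal of the 4 members under the brightness filter in each array, by group. Points are arrays and bars are means of 2 arrays. The dashed line is the brightness filter (51.1) and the dotted line the highest mean of the 27 bacterial control probe sets (18.6). Dlx1 is above the dotted line in all arrays and Neurog2 below it in all arrays.

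The genes most like each member across the 16 arrays, by Pearson correlation of log2 values with each array's median taken off, were Sox2 (r = 0.9215), Rab3ip (0.9142) and Qrich1 (0.9094) for Insm1. For Sox11 they were Gatm (0.9098), Fbn2 (0.9071) and Arc (0.9025), for Sox4 Slc29a3 (0.8965), Timp4 (0.8449) and Cpe (0.8343), and for Hes6 Gne (0.911), Tbc1d17 (0.8953) and Rbm42 (0.8905). These are descriptions over 16 arrays that share genotypes, times and array brightness, with no test.

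Other genes of the neurogenic programme were counted from 4 lists. Of 10 tested target and early neuron genes, 2 were higher and 6 lower in CreER cultures than in cultures without Cre under 4OH-TM, and 2 higher and 5 lower under vehicle, where 38.6% and 34.7% of all tested genes were called. The 5 lower ones under vehicle were Gadd45g (-1.93), Rnd3 (-1.59), Prox1 (-0.94) and the Notch ligands Dll1 (-0.90) and Dll3 (-0.73), and the 2 higher ones Stmn3 (0.75) and Myt1 (0.47). The median of the list was -0.45 under 4OH-TM and -0.42 under vehicle, beside -0.15 and -0.13 over all tested genes. Of 5 tested bHLH and E protein genes 2 were lower under vehicle, Tcf12 (-0.89) and Tcf4 (-0.87), and the 3 others, Olig1, Olig2 and Tcf3, were not called. Of 9 tested antagonists 3 were higher under vehicle (Rcor2 at 1.53, Id1 at 1.27 and Hes1 at 0.36) and 3 lower (Rest at -0.60, Id3 at -0.44 and Rcor1 at -0.41). Of 5 tested partner Sox, Dlx and interneuron genes, 1 was lower, Sox9, a glial and stem cell factor, at -1.13. The 5′ to 3′ actin ratio at 36 h also differed by genotype, 0.716 to 0.825 in CreER cultures and 0.548 to 0.666 without Cre. With this ratio in the fit, 702 genes were higher and 590 lower under vehicle, against 610 and 2030 in the main fit. The list counts were not redone in that fit.

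In CreER cultures over both times Gadd45g, a growth arrest gene, rose by 0.90 (SE 0.14, limma adjusted p = 2.44e-08) and Btg2, a cell cycle brake of neurogenic divisions, rose by 0.63 (SE 0.14, limma adjusted p = 2.77e-04), 2 of 10 target genes, with 0 lower, against 12.4% of all tested genes called. Of 9 antagonists 2 were lower, Rcor2 (-0.49, limma adjusted p = 0.0119) and Id3 (-0.35, adjusted p = 0.0368). Of 5 bHLH and E protein genes and 5 partner genes 0 were called, with 0 and 1 at an unadjusted p under 0.05. The Gadd45g response was larger in CreER cultures than in cultures without Cre (difference 1.01, limma adjusted p = 1.18e-04), the 1 call among the 10 target genes for that difference, against 2.36% of all tested genes. At 60 h, with 7.02% of all tested genes called, 2 of the 10 target genes were higher after 4OH-TM, Gadd45g (0.94, limma adjusted p = 1.99e-04) and Btg2 (0.74, adjusted p = 0.00687). At that time 1 was lower, Myt1, a zinc-finger factor that opposes Notch targets (-0.89, limma adjusted p = 0.0124). Its mean signal of 56.1 was near the filter, so that size is not exact. At 36 h, with 2.64% called, 1 was higher, Gadd45g (0.87, limma adjusted p = 0.00281). Without variance moderation 0 of 7619 genes were called at 36 h or for the difference of the genotypes' responses. Those Gadd45g calls were therefore lost in that setting, and the other calls of list genes were not followed over the alternative settings. Over time in CreER cultures, Gadd45g (0.49) and Btg2 (0.48) were higher at 60 h than at 36 h and Stmn3 (-0.61) lower, and Rest (0.42) was the 1 antagonist called, against 5.3% of all tested genes. Without Cre, Id1 (0.50) was the 1 antagonist called for time, and 0 of 10 target genes were, with 2 at an unadjusted p under 0.05, against 4.13% of all tested genes.

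**Figure D5:**
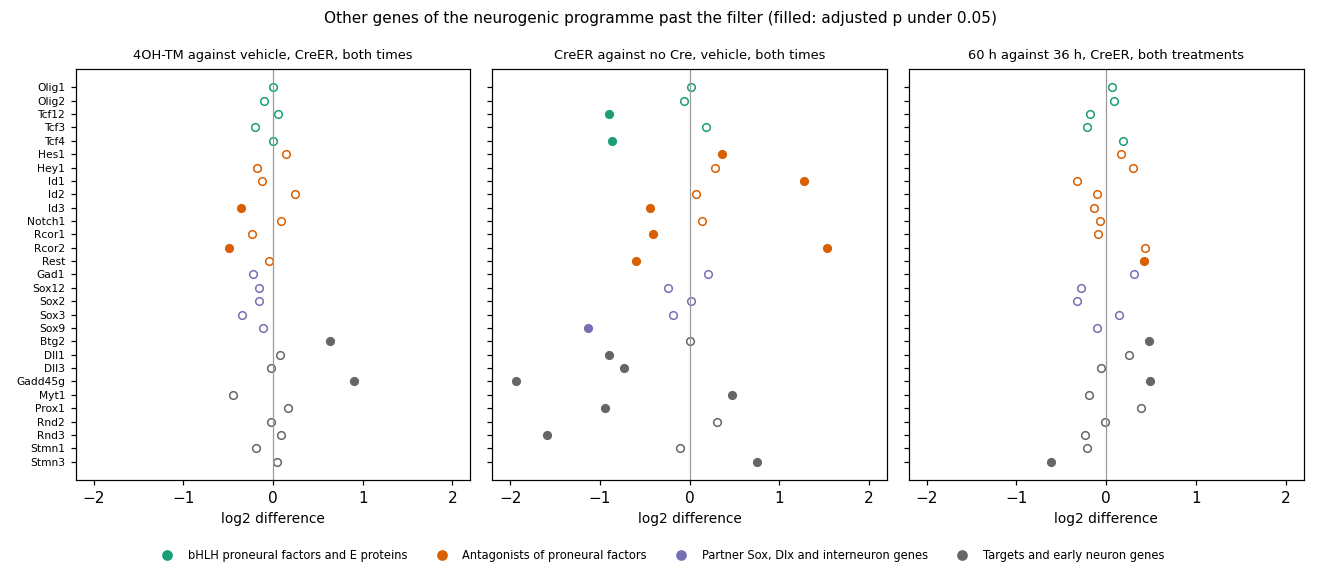
Differences of log2(signal + 16) of the other tested genes of the neurogenic programme in 3 comparisons; filled points have a limma adjusted p under 0.05. Gadd45g is higher after 4OH-TM in CreER cultures (0.90) but far lower in CreER than in no Cre cultures under vehicle (-1.93), and most calls fall in the comparison of genotypes.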

How the data were processed

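Each of the 16 samples gave 1 array. The deposited table holds an intensity, the MAS5 signal per probe set on a linear scale, per the submitters' processing notes; the version and the scaling target are not given in the sources used here. Per the labels' protocols, total RNA came from a TRIzol extraction and was labelled with an ENZO biotin transcription kit. Of 22690 probe sets, 64 controls were left out, and of the other 22626, 20380 had 1 gene symbol, 691 several and 1555 none in the platform annotation.

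Groups came from the sample titles. All 16 arrays entered 1 fit of 8 group means in limma 3.58.1 (R 4.3.3) on log2(signal + 16), without rescaling, since the array medians spanned a ratio of 1.44 and rescaling was set to start at 1.5. Tests were two-sided with Benjamini-Hochberg adjustment within each comparison. The fit had 8 residual degrees of freedom and an infinite prior, so each gene's spread was set by the trend shared by genes of like brightness. The prior was finite once arrays were rescaled, with 11.1 degrees of freedom after median scaling and 6.79 after quantile normalization. The number of arrays, not a depth, limits the precision, though not alone. With the same arrays, calls also moved with the scaling, the filter and the actin ratio. The fit was tested on simulated data. All members are named, with the 3 genes most like each tested member and, from each list, those with the smallest p. Members and lists were chosen with earlier results of these data known. Alternatives were other scaling, pseudocounts, filter, variance estimates, a replicate block, the actin ratio, the second probe set and single arrays left out.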

Additional observations from a re-analysis of the deposited data

Results flagged for a closer look

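Differences between groups stood out for 2 Sox4 probe sets, each fitted with all probe sets past the filter, of which 0.81%, 4.24% and 1.88% were called in the 3 comparisons below. For 1419157_at the response to 4OH-TM in CreER cultures at 60 h minus that at 36 h was -2.95 on the log2 scale (limma adjusted p = 2.91e-21), with responses of -1.10 at 60 h and 1.86 at 36 h. For the same probe set, the change between 60 h and 36 h in CreER cultures minus that in cultures without Cre was -3.03. The 4 arrays without Cre at 36 h behind that value (1.66 to 34.6) lay under the filter, so its size is not exact. For 1449370_at the response to 4OH-TM in CreER cultures minus that in cultures without Cre was 0.81 (limma adjusted p = 0.00446), with responses of 0.18 and -0.63. With each probe set's own spread between replicates, an alternative chosen after seeing the data, none of these 3 differences passed the threshold (adjusted p = 0.999, 0.197 and 0.607). The brightest Sox4 probe set gave -0.08, 0.21 and 0.26 for the same 3 differences, none of them called.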

How the results depend on the processing

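Of 1202 recomputed values of single members, 1152 kept their side of the threshold, 17 lost a call in the same direction, 30 gained one and 3 with a call in at least 1 setting changed direction. Of the 1152, 55 that were called in neither setting changed sign. The 3 were Insm1 at 60 h against 36 h without Cre with the actin ratio as covariate (0.38, adjusted p = 0.573), Sox4 in the same comparison by its second brightest probe set (0.91, adjusted p = 8.11e-10), and Sox4 for CreER against no Cre under 4OH-TM after median scaling (0.14, adjusted p = 0.0360). Their cause was not tested. Counts of members called for 4OH-TM in CreER cultures were 1 at 60 h and 1 over both times: 3 and 3 after quantile normalization, 0 and 0 without filter, without moderation and with the spread of the compared arrays alone, and 0 to 1 with an array left out; over both times it was 3 after median scaling, and at 60 h 2 with the actin covariate. Each such 0 held 1 or 2 members at an unadjusted p under 0.05. At 36 h quantile normalization gave 1 (Hes6) against 0, and for the difference of the genotypes' responses 2 against 0. For 60 h against 36 h the count of 1 became, in CreER cultures, 2 after median scaling, 3 after quantile normalization and 2 by the second probe set, and without Cre 2 after quantile normalization, 3 by the second probe set and 0 with the actin covariate; it was 0 in both without filter and without moderation. For the difference of these time changes median scaling gave 1 (Sox4) against 0. For CreER against no Cre the count of 1 became, under 4OH-TM, 4 after median scaling, 3 after quantile normalization, 2 without filter and 2 with the actin covariate, and under vehicle 2 after quantile normalization, 3 without filter and 2 with the actin covariate; it was 1 to 2 in both with an array left out. Other counts ranged over 0 to 0 or 1 to 1 with an array left out, the lone array of a group being taken to vary like the others. Over all genes, counts called ranged from 390 (no moderation) to 2947 (quantile) against 944 for 4OH-TM in CreER cultures over both times, from 56 to 2260 against 535 at 60 h, and from 0 to 1633 against 201 at 36 h. They ranged from 1292 to 4217 against 2640 for CreER against no Cre under vehicle, from 2146 to 4267 against 2938 under 4OH-TM, from 81 to 1738 against 404 for time in CreER cultures, from 15 to 3509 against 315 for time without Cre, from 0 to 1467 against 180 for the genotypes' responses, from 2 to 1305 against 170 for the time changes, from 0 to 62 against 5 for 4OH-TM without Cre, and from 0 to 170 against 15 for the CreER responses between times.

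The replicate numbers of the titles were not used to pair the samples. Correlations of same-numbered deviations ran from -0.126 to 0.311 over 28 pairs of groups, 5 of them over 0.1. Between 4OH-TM and vehicle at 36 h they were 0.311 without Cre and 0.122 in CreER cultures, so a pairing at that time was not settled. At 60 h they were -0.0752 and -0.0863. With the replicate block no count of members changed, and the calls over all genes for 4OH-TM in CreER cultures over both times were 784 against 944. Signals near the bacterial controls limit what can be said of Neurog2, Neurod1 and Dlx2, and Dlx1 lay under the filter.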
